A study of Mus musculus with 6 samples.

Results

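The meiotic recombination and synapsis genes are 37 listed mouse genes whose products build the chromosome axis and the synaptonemal complex, make and repair the DNA breaks of meiosis, and tie telomeres to the nuclear envelope. A gene was read from mRNA probes whose RefSeq accession maps to it, and 31 of the 37 had such a probe, among 19053 genes named through mRNA probes on the array. Rad21l, Syce3, Mei1, Meiob, Rnf212 and Majin had no such probe. RNA from whole testis of male C57/BL6 mice, kept specific pathogen free and given no treatment in the labels, was labelled with Cy3 and read on 6 one-colour arrays. The neonatal group was 6 days of age and the adult group 8 weeks, with 3 arrays for each. The study's methods divided the mice of each age into 3 groups, so a replicate holds pooled animals and the spread between single mice was not measured. The comparison asks which of these genes differ in RNA level between the testis shortly after birth and the testis of a mature male.

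In meiosis, homologous chromosomes are cut by SPO11, search for each other through the cut ends, and are zipped together along their lengths by the synaptonemal complex, which rests on axes made of meiosis-specific cohesin. A small set of the repaired breaks becomes crossovers, which hold the homologs together until they part. The neonatal mouse testis holds germ cells that have not yet entered meiosis among many somatic cells, whereas the adult testis holds spermatocytes, spermatids and sperm in large numbers.

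Nearly all of these messages were measurable at both ages. Of the 31 genes, 30 were well above background, by the scanner software's own call, on all 3 neonatal arrays (96.8%), against 74.1% of 22464 mRNA probes. On all 3 adult arrays, 29 genes passed the same call, against 72.1% of mRNA probes. The exceptions were Mei4, a partner of SPO11 in break formation, which was at the lowest level given to any probe (-7.22) on all 6 arrays, and Dmc1, which passed on 1 of 3 adult arrays. All levels are the log2 of the spot signal over the 75th percentile of the array's signals, so a difference of 1 is a 2-fold change. In RNA from whole tissue, fewer cells of a type and less RNA per cell cannot be told apart.

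The scanner software marked between 6.11% and 30.7% of the spots of an array as outliers, with 42 such spots among these genes on the replicate 3 arrays against 21 on the replicate 1 arrays and 19 on the replicate 2 arrays. Without these spots, 16 of the 30 detected genes could be tested, 12 of them on 2 pairs of arrays and 4 on 3 pairs. The other 14 (46.7%, against 21.7% of 19310 detected mRNA probes) are given with the outlier-flagged spots kept, and the limma fit with all such spots kept is named beside their values ("spots kept"). The levels printed for each array include outlier-flagged spots, and arrays carry the number of their replicate.

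At an adjusted p of at most 0.05, 7 of the 16 tested genes were higher in adult testis, against 29.7% of 15121 mRNA probes, and 3 were lower, against 45.8%. The genes that rose were Smc1b, Sycp1, Syce1, Spo11, Brca2, Ccnb1ip1 and Terb1, and those that fell were Hormad2, Dmc1 and Tex11. At least 5-fold higher were 3 of the 16 (Syce1, Spo11 and Terb1), against 12.6% of mRNA probes. At least 5-fold lower in the limma fit were 0 of the 16, against 13.7%. It was also 0 at an unadjusted p of at most 0.05 and by the methods' paired test (against 8.37% after adjustment), all on the same fitted folds. The fitted fold nearest to that limit, of Dmc1 at log2 -2.06, is not a measured size, since its adult signal was well above background on 1 of 3 arrays, so whether Dmc1 passes 5-fold was not measured. The count was 1 of 16 under quantile normalization (Dmc1, log2 -2.45), against 19.2%, 2 of 26 in the authors' values, against 20.9%, and 1 of 7 without the block and adult replicate 1, against 17.1%. The median log2 fold change, adult over neonatal, was 0.61 over the 16 genes and -0.40 over all tested mRNA probes. With the spots kept, 15 of 30 genes were higher, against 29.8% of 19310 mRNA probes, and 9 were lower, against 49.5%. In that fit 7 genes were at least 5-fold higher, against 12.8%, and 1 (Atm) was at least 5-fold lower, against 15.4%, with medians of 0.65 over these genes and -0.50 over all mRNA probes. By the methods' paired test after adjustment, 1 of the 16 genes (Sycp1) was higher (6.25%, against 17.6% of mRNA probes) and 1 (Dmc1) lower (against 21.9%), so the share higher lay below that of all probes and not above it. For the 12 genes on 2 pairs this test has 1 degree of freedom, so its lost calls do not show smaller changes. Spo11 (adjusted p = 0.0765 by this test) and Syce1 (0.0667) lost their calls at unchanged log2 fold changes of 4.57 and 2.86. By that test with the spots kept, 12 of 30 were higher, against 25.5%, and 5 lower, against 40.9%. The 3 arrays of each age did not overlap for 21 of the 30 genes, 15 with adult testis higher and 6 with it lower, against 72.5% of detected mRNA probes.

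The scaling of the arrays shifts the median of all genes, and single genes by unequal amounts. Quantile normalization put the median of all tested mRNA probes at -0.73 and that of the 16 genes at 0.32, and 3 of the 16 (Syce1, Spo11 and Terb1) were then called higher. These are 18.8%, below the 26.1% of all mRNA probes, where without it the share of the 16 (43.8%) lay above that of all probes (29.7%), and 4 were lower, against 51.7%. With the spots kept and quantile normalization 12 of 30 were higher, against 26.5%, and 10 lower, against 54.7%. A shift of each array to its median put these medians at -0.65 and 0.36, and the normexp background correction put them at 0.025 and 0.55. In the authors' own values, which include outlier-flagged spots, the median was -0.84 over 18506 mRNA probes and 0.20 over the 26 of these genes that they hold. Among all called mRNA probes, the share called higher was 39.4%, and 51.2% with normexp. The scan identifier of each array was taken as its slide. By it, replicates 1 and 2 of both ages lay on the same slide and replicate 3 of both ages on another, so replicate 3 and its slide cannot be told apart. The median difference of the 30 genes, spots kept, was 0.40 and 0.70 in the pairs of replicates 1 and 2 and 0.85 in the pair of replicate 3, against -0.47, -0.51 and -0.49 over all detected mRNA probes. With the slide as the block, 7 of the 16 genes were higher and 2 lower, against 30.8% and 47.5% of mRNA probes. Most of the tested genes rest on replicates 1 and 2, so 5 genes could be tested without replicate 1 (0 higher, 1 lower, median -0.79, against 22.6%, 31.3% and -0.25 over mRNA probes), 4 without replicate 2 (0 higher, 1 lower, median -0.43, against 23.2%, 32.4% and -0.21 over mRNA probes) and 15 without replicate 3 (7 higher, 2 lower, median 0.61, against 28.5%, 43.0% and -0.40 over mRNA probes). The median of the 30 genes with the spots kept was 0.85, 0.63 and 0.47 without replicate 1, 2 or 3, against -0.51, -0.49 and -0.51.

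**Figure D1:**
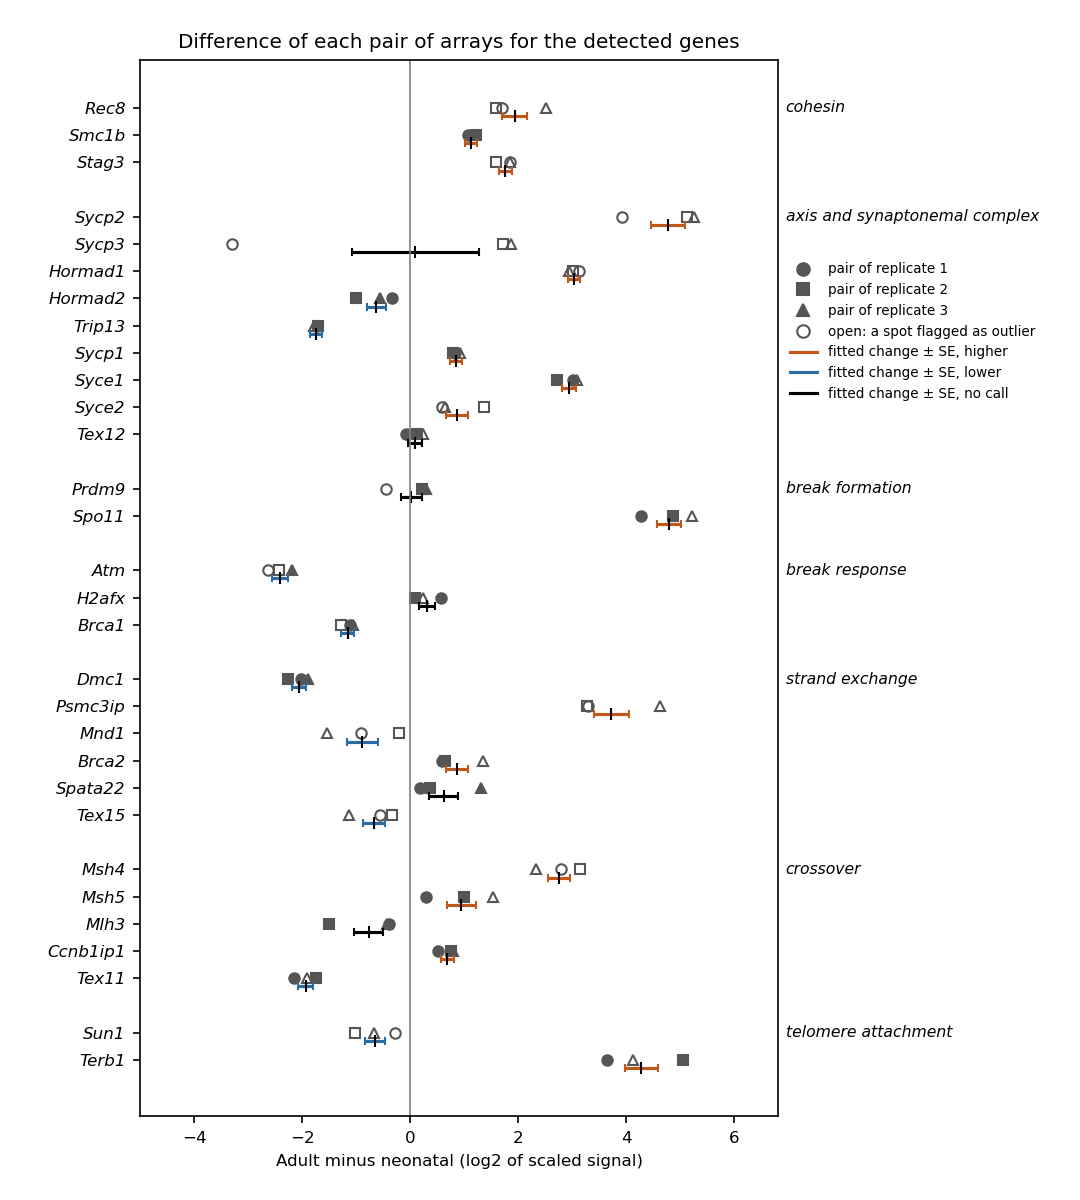
Each symbol is the difference in log2 scaled signal, adult minus neonatal, of 1 pair of arrays (circle, square and triangle for replicates 1, 2 and 3, open where a spot of the pair was marked as an outlier), for the 30 detected genes grouped by role. The vertical tick and the bar beneath are the change fitted by limma with all spots kept and its SE, coloured by its call. The fitted changes of Sycp2, Spo11 and Terb1 lie above 4, and those of Atm and Dmc1 lie below -2. The pair of replicate 1 lies on the other side of 0 from the other pairs for Sycp3, Prdm9 and Tex12.

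Of the 4 meiosis-specific cohesin subunits listed, 3 had a probe and 1 (Smc1b) could be tested without outlier-flagged spots. With these spots kept, 3 of 3 were called higher, against 29.8% of mRNA probes. REC8, the kleisin that closes the meiotic cohesin ring, had Rec8 levels of 0.11, -0.23 and -1.21 on neonatal arrays 1 to 3 and 1.80, 1.35 and 1.29 on adult arrays 1 to 3. Every adult value lay above every neonatal value. Outlier-flagged spots, 5 of the 6, kept Rec8 out of the test, and it was 3.81-fold higher in adult testis (log2 1.93 ± 0.23 SE, adjusted p = 0.00165, spots kept), higher in 3 of 3 pairs. Smc1b, a meiotic counterpart of the cohesin arm SMC1A, measured 3.74, 3.65 and 4.55 on neonatal arrays 1 to 3 and 4.80, 4.86 and 5.67 on adult arrays 1 to 3. Its groups did not overlap, and replicate 3 was the brightest at both ages. Smc1b was 2.19-fold higher in adult testis (log2 1.13 ± 0.15 SE, adjusted p = 0.007, in 2 of 2 pairs), on replicates 1 and 2 because the adult spot of replicate 3 was an outlier. This call was lost, among other alternatives, under quantile normalization (log2 0.38, adjusted p = 0.117) and with no replicate block (log2 0.85, adjusted p = 0.0689), within a range of 0.000586 to 0.202 over its alternatives. Stag3, the meiotic SA-type subunit of cohesin, stood at 2.38, 2.66 and 2.87 on neonatal arrays 1 to 3 and 4.23, 4.24 and 4.71 on adult arrays 1 to 3. All 3 adult arrays exceeded all 3 neonatal arrays, and all 6 spots were marked as outliers. Stag3 was 3.38-fold higher in adult testis (log2 1.76 ± 0.13 SE, adjusted p = 0.00036, spots kept), in 3 of 3 pairs.

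The general counterparts named here (Smc1a, Rad21, Stag1 and Stag2) fell. Over all 10 tested genes of general cohesin and its regulators, 6 were lower and 4 higher, against 45.8% and 29.7% of mRNA probes. Smc1a, the cohesin arm of mitotic cells, measured 3.05, 3.09 and 3.37 in neonatal testis and 0.43, 0.36 and 0.40 in adult testis. The adult arrays were close to each other and all below the neonatal arrays. Smc1a was 6.38-fold lower in adult testis (log2 -2.67 ± 0.14 SE, adjusted p = 0.00102, in 2 of 2 pairs), on replicates 1 and 2 because both spots of replicate 3 were outliers. Rad21, the mitotic kleisin, measured 3.14, 3.20 and 3.14 in neonatal testis and 0.94, 0.88 and 1.03 in adult testis, with all adult arrays below all neonatal arrays. Rad21 was 4.81-fold lower in adult testis (log2 -2.26 ± 0.14 SE, adjusted p = 0.0014, in 2 of 2 pairs). Of the mitotic SA-type subunits, Stag1 measured 2.54, 2.54 and 3.19 in neonatal testis and 1.49, 1.56 and 1.96 in adult testis, and Stag2 measured 2.81, 2.89 and 3.66 in neonatal testis and 0.69, 1.10 and 1.59 in adult testis. The ages did not overlap for either gene, and replicate 3 was brightest at both ages. Stag1 was 2.01-fold lower in adult testis (log2 -1.01 ± 0.14 SE, adjusted p = 0.0085, in 2 of 2 pairs), and Stag2 was 3.99-fold lower in adult testis (log2 -2.00 ± 0.12 SE, adjusted p = 0.000431, in 3 of 3 pairs). Rad21 and Stag1 were fitted without replicate 3, both of whose spots were outliers.

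**Figure D2:**
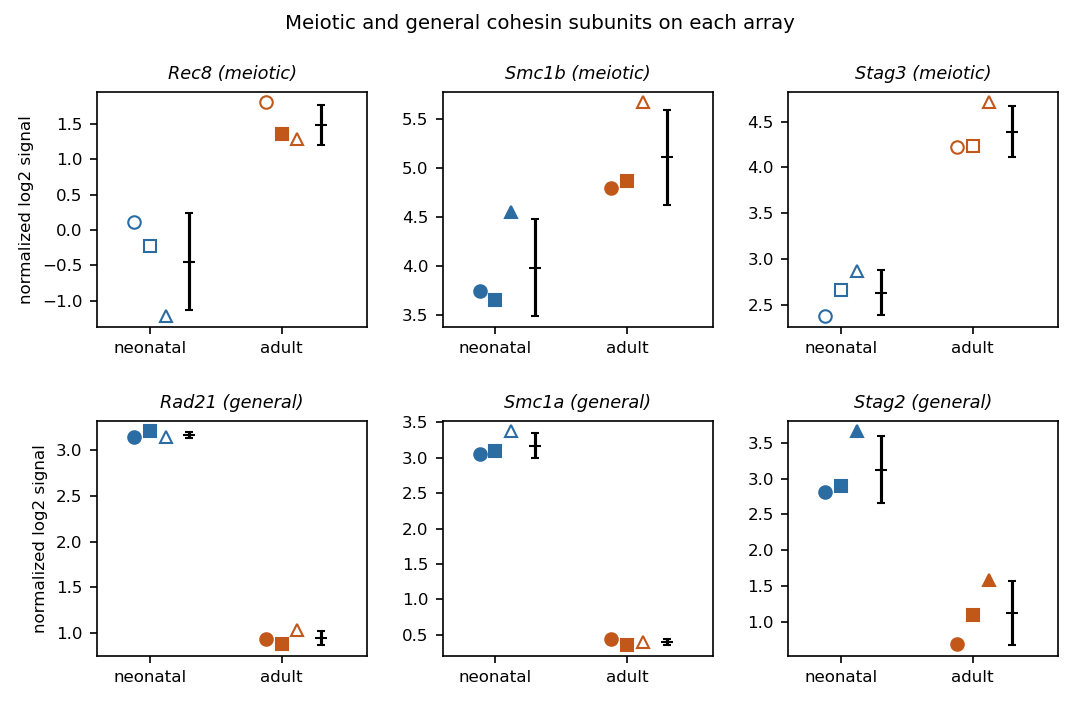
Normalized log2 signal (vertical axes, which differ between panels and do not start at 0) of 3 meiotic and 3 general cohesin subunits on the 6 arrays, neonatal in blue and adult in orange, with circle, square and triangle for replicates 1, 2 and 3, open symbols for outlier-flagged spots, and bars for the mean and SD of 3 arrays. The adult arrays lie above all neonatal arrays for Rec8, Smc1b and Stag3 and below them all for Rad21, Smc1a and Stag2.

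Of the chromosome axis proteins, SYCP2 and SYCP3 form the lateral elements onto which the synaptonemal complex is built. Sycp2 measured -4.52, -5.36 and -6.58 on neonatal arrays 1 to 3 and -0.60, -0.23 and -1.33 on adult arrays 1 to 3. Its neonatal arrays were low and its adult arrays far above them, without overlap. All 3 adult spots were outliers, and Sycp2 was 27.2-fold higher in adult testis (log2 4.76 ± 0.31 SE, adjusted p = 0.000286, spots kept), in 3 of 3 pairs. Sycp3 measured 2.68, 2.22 and 1.33 on neonatal arrays 1 to 3 and -0.61, 3.94 and 3.19 on adult arrays 1 to 3. Adult replicate 1 lay below every neonatal array, while adult replicates 2 and 3 lay above them all, so the ages overlapped. All 3 neonatal spots and the adult spots of replicates 2 and 3 were outliers, and adult replicate 1 alone was not marked. Sycp3 gave no call, with the spots kept, (log2 0.093 ± 1.17 SE, adjusted p = 0.946). Without replicate 1, and so on outlier-flagged spots alone, it was called higher (log2 1.79, adjusted p = 0.00661), within a range of 0.00661 to 0.964 over its alternatives. Under quantile normalization its log2 fold change was -0.20.

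The HORMA-domain proteins mark axes that are not yet paired, and TRIP13 is the ATPase that removes them on synapsis. Hormad1 measured -3.18, -3.17 and -2.88 on neonatal arrays 1 to 3 and -0.059, -0.16 and 0.056 on adult arrays 1 to 3. The adult arrays were closely grouped and all above the neonatal arrays. Its adult spots were outliers on all 3 arrays, and Hormad1 was 8.14-fold higher in adult testis (log2 3.03 ± 0.12 SE, adjusted p = 7.63e-05, spots kept), in 3 of 3 pairs. Hormad2, by contrast, measured -3.26, -3.76 and -2.99 on neonatal arrays 1 to 3 and -3.59, -4.77 and -3.56 on adult arrays 1 to 3, with no outlier-flagged spot. Adult replicates 1 and 3 lay within the neonatal range and adult replicate 2 lay below it, so the ages overlapped. Hormad2 was 1.55-fold lower in adult testis (log2 -0.63 ± 0.17 SE, adjusted p = 0.0272, in 3 of 3 pairs), lower in 3 of 3 pairs. That call rests on the pairing and on all 3 replicates, since, among other alternatives, adjusted p was 0.207 with no replicate block, 0.152 with the slide as a block, and 0.0723, 0.125 and 0.124 without replicate 1, 2 or 3, within a range of 0.00633 to 0.504. Trip13 measured 1.87, 1.84 and 2.24 on neonatal arrays 1 to 3 and 0.14, 0.12 and 0.45 on adult arrays 1 to 3. The adult arrays lay below all neonatal arrays, and Trip13 was 3.36-fold lower in adult testis (log2 -1.75 ± 0.11 SE, adjusted p = 0.000258, spots kept), in 3 of 3 pairs. Its neonatal spots of replicates 1 and 3 and its adult spot of replicate 3 were outliers.

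SYCP1 forms the transverse filaments of the synaptonemal complex, and SYCE1, SYCE2 and TEX12 are among the proteins of its central element. Syce1 measured 1.14, 1.10 and 1.11 on neonatal arrays 1 to 3 and 4.15, 3.81 and 4.20 on adult arrays 1 to 3. The arrays of each age lay close together and the ages were far apart. Syce1 was 7.25-fold higher in adult testis (log2 2.86 ± 0.16 SE, adjusted p = 0.00116, in 2 of 2 pairs), on replicates 1 and 2 because both spots of replicate 3 were outliers. Sycp1 lay between 2.73 and 3.07 in neonatal testis and between 3.64 and 3.90 in adult testis, without overlap. Sycp1 was 1.75-fold higher in adult testis (log2 0.81 ± 0.14 SE, adjusted p = 0.0145, in 2 of 2 pairs), also without replicate 3, and had no call under quantile normalization (log2 0.35, adjusted p = 0.126, range 0.00136 to 0.126). Syce2 measured 4.88, 4.79 and 5.92 on neonatal arrays 1 to 3 and 5.47, 6.14 and 6.57 on adult arrays 1 to 3. Neonatal replicate 3 exceeded adult replicate 1, so the ages overlapped. All 3 adult spots and the neonatal spot of replicate 3 were outliers. Syce2 was 1.82-fold higher in adult testis (log2 0.86 ± 0.20 SE, adjusted p = 0.0162, spots kept), in 3 of 3 pairs, and it went to -0.0090 under quantile normalization. Its call was also lost, among other alternatives, without replicate 1 (adjusted p = 0.0555), without replicate 3 (0.0746) and with no replicate block (0.109), within a range of 0.00702 to 0.971.

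Tex12, the central element gene with the smallest change, measured 2.94, 2.84 and 2.29 on neonatal arrays 1 to 3 and 2.86, 2.97 and 2.53 on adult arrays 1 to 3. The ages overlapped, and replicate 3 was lowest at both. It gave no call (log2 0.018 ± 0.15 SE, adjusted p = 0.919, 2 pairs, both spots of replicate 3 being outliers), and its sign turned under quantile normalization (log2 -0.34) and under a shift of each array to its median (log2 -0.24). Over the axis and synaptonemal complex, 4 genes were tested, with 2 higher, 1 lower and 1 without a call, against 29.7% of mRNA probes higher and 45.8% lower. A total of 9 were tested with the spots kept, with 5 higher, 2 lower and 2 without a call, against 29.8% higher and 49.5% lower.

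The array also carries lncRNA probes that the study listed, from these samples, as antisense to synaptonemal complex genes, so their levels are a description. AK015852, antisense to Sycp1, measured -6.98, -6.37 and -6.97 on neonatal arrays 1 to 3 and -1.04, -1.68 and -1.42 on adult arrays 1 to 3. It was well above background on 1 of 3 neonatal arrays and on all 3 adult arrays, and the ages did not overlap. The adult spot of replicate 3 was an outlier, and no size is given for the difference, since 2 of 3 neonatal signals were not well above background. AK077193, antisense to Sycp2, measured -5.52, -5.97 and -4.60 on neonatal arrays 1 to 3 and -1.28, -0.87 and -0.15 on adult arrays 1 to 3. It was well above background on all 6 arrays, again without overlap, and its log2 difference was 4.60 ± 0.21 SE on 3 pairs.

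In break formation, Spo11, the nuclease that makes the breaks, measured 0.20, -0.29 and -1.13 on neonatal arrays 1 to 3 and 4.46, 4.58 and 4.09 on adult arrays 1 to 3. The adult arrays were far above the neonatal arrays and close to each other. Spo11 was 23.7-fold higher in adult testis (log2 4.57 ± 0.22 SE, adjusted p = 0.000835, in 2 of 2 pairs), on replicates 1 and 2 because both spots of replicate 3 were outliers. Its other 2 probes were 23.4-fold and 29.5-fold higher. Prdm9, the histone methyltransferase that places the breaks, measured -1.96, -2.60 and -3.22 on neonatal arrays 1 to 3 and -2.42, -2.39 and -2.92 on adult arrays 1 to 3. The ages overlapped, with the highest and the lowest of the 6 values both in neonatal testis. It gave no call (log2 0.26 ± 0.14 SE, adjusted p = 0.191), on replicates 2 and 3 because the neonatal spot of replicate 1 was an outlier, and the log2 fold change was -0.24 in the authors' values. Mei4 stayed at -7.22 in every array, and no change can be given for it.

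The measured genes of the break response were H2afx, Atm and Brca1. H2afx, the histone variant phosphorylated around breaks, measured 2.84, 2.98 and 2.84 on neonatal arrays 1 to 3 and 3.40, 3.07 and 3.09 on adult arrays 1 to 3. Adult values lay above neonatal values by little, without overlap, and the gene gave no call (log2 0.33 ± 0.19 SE, adjusted p = 0.215, 2 pairs, both spots of replicate 3 being outliers), with a log2 fold change of -0.057 under quantile normalization. Atm, the kinase that signals breaks and limits their number, measured -1.47, -1.94 and -2.74 on neonatal arrays 1 to 3 and -4.10, -4.37 and -4.93 on adult arrays 1 to 3. All adult arrays lay below all neonatal arrays. Atm was 5.34-fold lower in adult testis (log2 -2.42 ± 0.14 SE, adjusted p = 0.000209, spots kept), in 3 of 3 pairs, and could not be tested otherwise because neonatal spots of replicates 1 and 2 were outliers. Brca1, which acts at breaks and on unpaired axes, measured 1.62, 1.69 and 1.85 on neonatal arrays 1 to 3 and 0.49, 0.41 and 0.78 on adult arrays 1 to 3. Its adult arrays were again all below the neonatal ones, and it was 2.23-fold lower in adult testis (log2 -1.16 ± 0.12 SE, adjusted p = 0.00104, spots kept), in 3 of 3 pairs. The neonatal spots of replicates 2 and 3 and the adult spot of replicate 3 were outliers.

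DMC1 is the meiotic recombinase that invades the homolog, and PSMC3IP with MND1 form the HOP2-MND1 complex that stimulates it. Dmc1 measured -4.18, -4.73 and -5.08 on neonatal arrays 1 to 3 and -6.20, -7.00 and -6.97 on adult arrays 1 to 3. Every adult array lay below every neonatal array, close to the lowest level given to a probe. Dmc1 was called lower in adult testis (log2 -2.06 ± 0.12 SE, adjusted p = 0.00042, in 3 of 3 pairs). The adult signal was well above background on 1 of 3 arrays, so this size is not a measured ratio of levels. With the normexp background correction and an offset of 50, its log2 fold change was -0.39 and gave no call (adjusted p = 0.111, range 0.000137 to 0.111). Psmc3ip measured 1.00, 1.20 and -0.50 on neonatal arrays 1 to 3 and 4.28, 4.47 and 4.11 on adult arrays 1 to 3. The adult arrays exceeded all neonatal arrays, among which replicate 3 was lowest. All 6 spots were outliers, and Psmc3ip was 13.2-fold higher in adult testis (log2 3.72 ± 0.33 SE, adjusted p = 0.000647, spots kept), in 3 of 3 pairs. Its partner Mnd1 measured 0.79, 0.42 and 0.24 on neonatal arrays 1 to 3 and -0.13, 0.20 and -1.31 on adult arrays 1 to 3. The adult values lay below the neonatal values, the nearest pair of arrays being adult replicate 2 and neonatal replicate 3. All 3 neonatal spots and the adult spots of replicates 1 and 2 were outliers. Mnd1 was 1.86-fold lower in adult testis (log2 -0.89 ± 0.29 SE, adjusted p = 0.0426, spots kept), in 3 of 3 pairs, a call lost, among other alternatives, without replicate 1 (adjusted p = 0.182), without replicate 3 (0.163) and with no replicate block (0.0996), within a range of 0.0194 to 0.253.

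BRCA2 loads recombinase onto single-stranded DNA. Brca2 measured 2.58, 2.57 and 1.83 on neonatal arrays 1 to 3 and 3.16, 3.21 and 3.18 on adult arrays 1 to 3. Neonatal replicate 3 was lowest, and the adult arrays lay close together above all neonatal ones. Brca2 was 1.53-fold higher in adult testis (log2 0.61 ± 0.14 SE, adjusted p = 0.0293, in 2 of 2 pairs), without replicate 3, both of whose spots were outliers, and it had no call, among other alternatives, under quantile normalization (log2 0.29, adjusted p = 0.176) or a shift to the median (log2 0.35, adjusted p = 0.12), within a range of 0.0037 to 0.176. A further Brca2 probe could be fitted with the spots kept only and was 1.73-fold higher in adult testis (log2 0.79 ± 0.15 SE, adjusted p = 0.00902). Spata22, a partner of MEIOB on single-stranded DNA, lay between -2.77 and -2.30 in neonatal testis and -2.40 and -1.46 in adult testis, with overlap and no call (log2 0.62 ± 0.26 SE, adjusted p = 0.0975, 3 pairs). Tex15, needed in the mouse for loading recombinase, measured 3.84, 3.45 and 2.96 on neonatal arrays 1 to 3 and 3.28, 3.11 and 1.83 on adult arrays 1 to 3. Adult replicates 1 and 2 lay within the neonatal range and adult replicate 3 below it. Tex15 was 1.60-fold lower in adult testis (log2 -0.67 ± 0.20 SE, adjusted p = 0.0317, spots kept), in 3 of 3 pairs, with all 6 spots outliers, and had no call, among other alternatives, without replicate 1, 2 or 3 (adjusted p = 0.116, 0.0525 and 0.0665) or with no replicate block (0.219), within a range of 0.00321 to 0.535.

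MSH4 and MSH5 form the complex that stabilises crossover intermediates. Msh4 measured -1.60, -1.99 and -3.25 on neonatal arrays 1 to 3 and 1.20, 1.16 and -0.92 on adult arrays 1 to 3. The adult arrays lay above the neonatal arrays, and replicate 3 was lowest at both ages. All 6 spots were outliers, and Msh4 was 6.75-fold higher in adult testis (log2 2.75 ± 0.20 SE, adjusted p = 0.000358, spots kept), in 3 of 3 pairs. With no block its call was lost without neonatal replicate 3 (adjusted p = 0.0519), adult replicate 1 (0.0604) or adult replicate 2 (0.0556), within a range of 8.31e-05 to 0.0604. Msh5 has 2 probes. The brighter one measured 0.17, -0.44 and -0.30 on neonatal arrays 1 to 3 and 0.46, 0.56 and 1.22 on adult arrays 1 to 3, and the other -0.17, -0.61 and -0.67 in neonatal and 0.41, 0.28 and 0.78 in adult replicates. On both probes all adult arrays exceeded all neonatal arrays. The brighter probe gave no call (log2 0.65 ± 0.25 SE, adjusted p = 0.0944, 2 pairs) while the other was 1.67-fold higher in adult testis (log2 0.74 ± 0.17 SE, adjusted p = 0.0281, 2 pairs), both fitted without replicate 3 because of outlier-flagged spots. Both probes, with the spots kept, were called higher (1.92-fold, adjusted p = 0.0306, and 1.97-fold, adjusted p = 0.0118), and the brighter one was also called higher with normexp (adjusted p = 0.0135) and with an intensity trend in the prior variance (0.0456), within a range of 0.0135 to 0.368.

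Among the genes that act later on crossovers, Tex11, an X-linked gene whose product sits on forming crossovers, measured 3.41, 3.33 and 3.84 on neonatal arrays 1 to 3 and 1.25, 1.58 and 1.93 on adult arrays 1 to 3. The adult arrays were all below the neonatal arrays. Tex11 was 3.87-fold lower in adult testis (log2 -1.95 ± 0.18 SE, adjusted p = 0.00324, in 2 of 2 pairs), on replicates 1 and 2 because the neonatal spot of replicate 3 was an outlier. By the methods' paired test Tex11 had no call before or after adjustment (adjusted p = 0.104), within a range of 0.000347 to 0.104 over its alternatives. Ccnb1ip1, which encodes the ligase HEI10 at crossover sites, measured 1.27, 1.13 and 1.10 on neonatal arrays 1 to 3 and 1.79, 1.88 and 1.88 on adult arrays 1 to 3. The ages were close but did not overlap. Ccnb1ip1 was 1.55-fold higher in adult testis (log2 0.63 ± 0.15 SE, adjusted p = 0.0342, in 2 of 2 pairs), without replicate 3, both of whose spots were outliers, and had no call under quantile normalization (log2 0.58, adjusted p = 0.0525) or a shift to the median (log2 0.37, adjusted p = 0.139), in the authors' values (0.0529), with no filter on dim probes (0.0919) or by the methods' paired test before or after adjustment (0.159 after it), within a range of 0.00701 to 0.159. Mlh3, a subunit of the nuclease that cuts crossover intermediates, lay between -4.17 and -3.39 in neonatal and between -4.89 and -3.84 in adult testis, with overlap. It gave no call (log2 -0.78 ± 0.27 SE, adjusted p = 0.0591, 3 pairs). It was called lower under 6 alternatives: quantile normalization (log2 -1.06, adjusted p = 0.02), a shift to the median (log2 -1.03, 0.0192), the authors' values (log2 -1.04, 0.025), the filter on all 3 arrays of an age (0.0394), an intensity trend (0.0464) and, with no block, without adult replicate 1 (log2 -1.07, 0.0411). Over all its alternatives adjusted p ranged from 0.0192 to 0.268.

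At the telomere, TERB1 joins chromosome ends to the membrane protein SUN1, which spans the inner nuclear envelope. Terb1 measured -2.78, -3.75 and -3.20 on neonatal arrays 1 to 3 and 0.85, 1.30 and 0.93 on adult arrays 1 to 3. The adult arrays were far above the neonatal arrays, among which replicate 2 was lowest. Terb1 was 20.3-fold higher in adult testis (log2 4.34 ± 0.43 SE, adjusted p = 0.0037, in 2 of 2 pairs), on replicates 1 and 2 because the adult spot of replicate 3 was an outlier. Among other alternatives, its call was lost with no filter on dim probes (adjusted p = 0.0794, range 0.000362 to 0.144). Sun1 measured 0.13, 0.10 and -0.15 on neonatal arrays 1 to 3 and -0.15, -0.92 and -0.82 on adult arrays 1 to 3. Adult replicate 1 lay at the level of neonatal replicate 3, and adult replicates 2 and 3 lay below all neonatal arrays. All 3 neonatal spots and the adult spots of replicates 1 and 3 were outliers. Sun1 was 1.58-fold lower in adult testis (log2 -0.66 ± 0.18 SE, adjusted p = 0.0278, spots kept), in 3 of 3 pairs, a call lost, among other alternatives, without replicate 2 (adjusted p = 0.112), without replicate 3 (0.14) and with no replicate block (0.0549), within a range of 0.00638 to 0.156. Sun2, the related protein of the same envelope bridge, measured -2.07, -2.23 and -2.61 in neonatal testis and -2.96, -3.85 and -3.42 in adult testis and was 2.15-fold lower in adult testis (log2 -1.10 ± 0.21 SE, adjusted p = 0.0092, in 3 of 3 pairs).

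Of 69 further recombination genes on a list of partners and general factors, 62 had a probe and 40 were tested. In that list 10 were higher and 19 lower, with 11 without a call and a median log2 fold change of -0.39. These shares, 25.0% higher and 47.5% lower, are near those of all tested mRNA probes (29.7% and 45.8%, median -0.40). With the spots kept 14 of 62 were higher and 27 lower (22.6% and 43.5%, against 29.8% and 49.5%). At least 5-fold higher were 2 of the 40, against 12.6% of mRNA probes, and at least 5-fold lower 2 of the 40, against 13.7%. Those higher were Ccdc155, which encodes the dynein link KASH5 at meiotic telomeres, and Slx4, a scaffold of repair nucleases. Ccdc155 measured -1.19, -1.33 and -1.02 in neonatal testis and 2.85, 2.93 and 3.51 in adult testis, without overlap, and was 19.4-fold higher in adult testis (log2 4.28 ± 0.14 SE, adjusted p = 0.000137, in 3 of 3 pairs). Slx4 measured 1.78, 1.61 and 1.82 in neonatal testis and 4.33, 4.37 and 4.49 in adult testis, also without overlap, and was 6.31-fold higher in adult testis (log2 2.66 ± 0.15 SE, adjusted p = 0.00115, in 2 of 2 pairs), without replicate 3. Smc1a was among the genes at least 5-fold lower. The share of the 40 at least 5-fold lower was 12.5% under quantile normalization (against 19.2% of mRNA probes) and 10% under a shift to the median (against 17.6%). It was 2.5% with normexp (against 6.85%) and 11.1% of 54 genes in the authors' values (against 20.9%). With the spots kept, Cntd1 (a crossover regulator, 25.9-fold) and Mael (a protein of the germ cell nuage, 5.17-fold) were also at least 5-fold higher and Chek2 (a checkpoint kinase, 5.05-fold) at least 5-fold lower.

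Marker genes of testis cell types moved with age beside these genes, and their part in the result was not tested. The levels summed here are probe signals relative to the 75th percentile of the array, without log2, and since probes differ in how they bind, the brightest probe of a list need not be its most abundant message. The counts of called markers stand against 29.7% of all tested mRNA probes higher and 45.8% lower. Of 8 spermatocyte markers outside recombination, 7 were higher in adult testis and 1 (Calr3) had no call, with sums of 9.75, 9.37 and 22.7 in neonatal replicates and 267, 266 and 346 in adult replicates, and Ldhc in neonatal and Pgk2 in adult testis as the brightest probes. Spermatid markers were higher in 6 of 6 tested, with sums of 0.656, 0.697 and 0.784 in neonatal replicates and 1031, 1201 and 1402 in adult replicates, Tnp1 (neonatal) and Prm2 (adult) were brightest, and Catsper1 passed the background call on no neonatal array. Spermatogonial markers were lower in 4 of 5 tested, with sums of 111, 120.3 and 105 in neonatal replicates and 22.7, 23.7 and 17.5 in adult replicates, and Uchl1 was brightest. Among them Stra8, the gene that opens meiosis, was 6.10-fold lower in adult testis (log2 -2.61 ± 0.14 SE, adjusted p = 0.00104, in 2 of 2 pairs), and Gfra1 passed the background call on no array.

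Somatic cell markers moved in both directions, against the same 29.7% and 45.8% of mRNA probes. Sertoli markers were lower in 3 of 3 tested, with sums of 90.2, 91.3 and 71.5 in neonatal replicates and 35.4, 30.3 and 32.5 in adult replicates, and Amhr2 was brightest. Leydig markers were higher in 2 and lower in 1 of 4, with sums of 26.5, 28.5 and 25.5 in neonatal replicates and 72.9, 56.5 and 54.3 in adult replicates, and Hsd3b1 in neonatal and Insl3 in adult testis were brightest. The rise of the Leydig sum rests on Insl3. Its log2 levels were 2.31, 2.42 and 1.03 in neonatal and 5.80, 5.30 and 5.14 in adult replicates. Insl3 was not among the 4 tested, with outlier-flagged spots on 3 neonatal and 2 adult arrays, and Hsd3b1 was 2.06-fold lower in adult testis. Peritubular myoid markers were lower in 3 of 3, with sums of 21.7, 22.0 and 27.1 in neonatal replicates and 4.78, 4.34 and 6.55 in adult replicates, Myh11 was brightest, and Cnn1 passed the background call on no array. Endothelial markers were lower in 4 of 4, with sums of 7.63, 8.78 and 14.9 in neonatal replicates and 2.12, 1.76 and 3.24 in adult replicates, and Cdh5 was brightest. Macrophage markers were higher in 1 and lower in 1 of 2, with sums of 2.84, 2.81 and 2.76 in neonatal replicates and 1.78, 1.89 and 2.45 in adult replicates, and Csf1r was brightest. Rhox5 of the Sertoli list and Cd68 of the macrophage list had no probe.

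**Figure D3:**
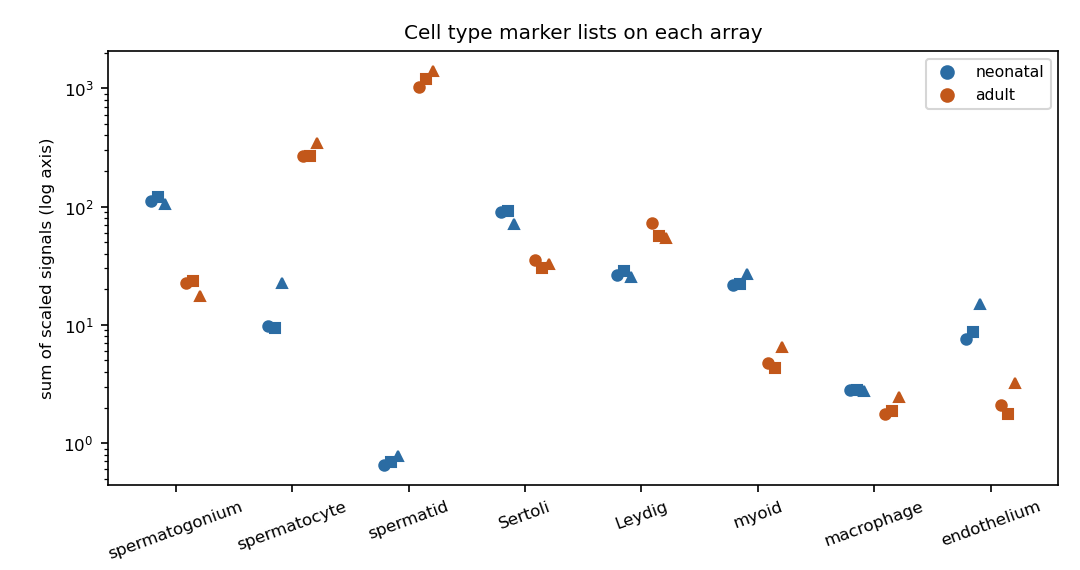
Sum of the scaled signals of each marker list (log axis) on the 6 arrays, neonatal in blue and adult in orange, with circle, square and triangle for replicates 1, 2 and 3, and spermatocyte markers limited to genes outside recombination. The adult sums lie above the neonatal sums for spermatocyte, spermatid and Leydig markers and below them for the other 5 lists.

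Promoter sequence, which the choice of genes did not use, was read from the RefSeq promoter table on GRCm38.p6 as the 250 bases before each start. The table held 31 of the 37 genes (37 promoters), without Spo11, Tex11, Tex15, H2afx, Meiob and Majin. Motifs were searched on both strands, and a match describes letters only. The E2F motif TCCCGC was in promoters of 17 of the 31 genes (54.8%), against 24.2% of 17486 coding genes and 16.9% of 32841 promoters. The E-box CACGTG was in 6 genes (19.4%, against 7.61% of coding genes and 6.02% of promoters), namely Hormad1, Syce2, Sycp1, Sycp3, Tex12 and Stag3. The STRA8 motif CNCCTCAG was in 4 genes (Hormad2, Syce2, Prdm9 and Msh5; 12.9%, against 7.82% and 6.42%). Of the MYB motifs, TAACNG was in 11 genes (35.5%, against 20.2% and 19.8%) and CAACNG in 7 (22.6%, against 31.6% and 29.3%). The median ratio of observed to chance CpG pairs was 0.671 over the member promoters, 0.530 over coding genes and 0.374 over all promoters. The E2F motif and the E-box each hold a CpG pair, and the shares compared here were not matched for this ratio.

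Promoters are printed for Syce1 (chr7:140787855-140788104) and Terb1 (chr8:104509888-104510137), which rose by at least 5-fold, for Sycp1 (chr3:102936101-102936350), which has an antisense transcript on the array, and for Dmc1 (chr15:79605110-79605359), which fell. All 4 are from the minus strand of GRCm38.p6 (RefSeq), 5′ to 3′ towards the start, with matches to the motifs in capitals. Dmc1 and Terb1 each hold 2 matches to the E2F motif, Sycp1 holds the E-box and overlapping matches to CAACNG and TAACNG, and Syce1 holds none of the letters searched.
Syce1: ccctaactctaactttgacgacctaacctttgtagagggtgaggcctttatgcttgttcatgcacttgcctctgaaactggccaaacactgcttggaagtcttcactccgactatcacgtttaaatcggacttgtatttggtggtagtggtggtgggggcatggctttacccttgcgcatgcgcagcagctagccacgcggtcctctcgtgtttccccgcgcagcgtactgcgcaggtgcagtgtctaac
Terb1: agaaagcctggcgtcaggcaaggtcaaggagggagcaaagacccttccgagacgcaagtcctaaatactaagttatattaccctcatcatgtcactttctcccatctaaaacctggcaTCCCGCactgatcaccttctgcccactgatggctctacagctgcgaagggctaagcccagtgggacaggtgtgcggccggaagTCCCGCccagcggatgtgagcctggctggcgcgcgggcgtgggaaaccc
Sycp1: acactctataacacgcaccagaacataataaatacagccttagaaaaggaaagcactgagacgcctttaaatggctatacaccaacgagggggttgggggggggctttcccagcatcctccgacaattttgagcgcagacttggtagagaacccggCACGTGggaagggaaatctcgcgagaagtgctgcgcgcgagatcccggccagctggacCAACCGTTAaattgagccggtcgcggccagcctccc
Dmc1: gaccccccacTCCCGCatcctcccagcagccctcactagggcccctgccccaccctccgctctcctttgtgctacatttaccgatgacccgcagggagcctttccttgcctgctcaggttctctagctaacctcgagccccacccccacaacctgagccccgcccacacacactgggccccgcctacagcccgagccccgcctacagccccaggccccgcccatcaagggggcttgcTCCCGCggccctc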

How the data were processed

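RNA from 3 neonatal and 3 adult samples of whole testis was measured on 1 array each, and 38031 spots per array carry a probe. The deposited scanner files give spot intensity, read with Agilent Feature Extraction 10.5.1.1 according to the submitters' notes, after background subtraction and detrending inside the array and with no scaling between arrays. A second deposited table gives log2 values of 8265 lncRNA and 18506 mRNA probes. On each array 100% of the authors' log2 values matched, to 0.001, the log2 signal with a floor of 5 less 1 constant per array, and the medians of the columns were 1.28, 1.30 and 1.27 (neonatal) and 1.20, 1.27 and 1.22 (adult).

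Spots of a probe were averaged, each array was divided by its 75th percentile over lncRNA and mRNA probes, values below a common floor of -7.22 (log2) were set to it, and outlier-flagged spots were left out. The other probe classes were left out. Tests used limma 3.58.1 (R 4.3.3) on the 24517 probes that passed the background call on 1 or more arrays and had 2 or more complete pairs, blocked by replicate number, with Benjamini-Hochberg adjustment over all of them. A call is an adjusted p of at most 0.05. The limma prior degrees of freedom were 2.10.

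The 75th percentile signals were 2947, 2501 and 1384 (neonatal) and 1855, 1425 and 747.9 (adult), 65.9% to 69.8% of spots per array were well above background, and the lowest such signal lay between 6.09 and 24.0. No spot was saturated. The number of arrays limits the precision.

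RefSeq accessions named 21905 of 22464 mRNA probes. A gene with several probes is given by its brightest tested probe. All values are printed for the largest and smallest tested change of each role, every member that fell, could not be tested or has probes that differ in call, and others by range. Further recombination genes named here are from those that changed at least 5-fold or are general counterparts of members. The members and lists were chosen with earlier results of these data known.

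To check the pairing, deviations from the mean of each age were correlated between ages over 7333 probes well above background on all 6 arrays. The correlation was 0.497, 0.429 and 0.777 for replicates 1 to 3, 0.470 and 0.508 for other arrays of the same slide, and -0.690 to -0.556 between slides, so arrays of the same number on the slide of replicates 1 and 2 were no more alike than arrays of different numbers. Slides were told apart by the scan identifier of each array. Replicate 3 was alone on its slide, and there the number and the slide cannot be told apart. The methods name a paired test, and the number was kept as the block.

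Alternatives were other scalings, floors, background correction (normexp on the median spot signal with an offset of 50; the mean spot signal was not used here), the authors' log2 values, filters, blocks, prior variance, tests, adjustment, probe choice, fold threshold, and leaving out replicates or arrays. The fits with outlier-flagged spots kept and another choice changed as well were added after seeing the data.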

Additional observations from a re-analysis of the deposited data

How the results depend on the processing

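Over the 16 tested genes and their alternatives, 269 of 322 log2 fold changes kept their direction and their side of the threshold, 39 lost the call, 9 gained it and 5 changed sign. With the spots kept, for the 14 genes that could not be tested otherwise, the counts were 200 of 262, 51, 1 and 10. Where a value moved, the cause was not tested unless fewer probes or arrays are named.

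Shares of all tested mRNA probes in the same fit stand in brackets. Quantile normalization gave 1 gene at least 5-fold lower (19.2%), 3 higher (26.1%) and a median of 0.32, and a shift to the median gave a median of 0.36. In the authors' log2 values 26 genes could be tested, with 5 at least 5-fold higher (12.3%), 2 at least 5-fold lower (20.9%), 9 lower (54.6%) and a median of 0.20, and 30 of 54 other recombination genes were lower. Keeping outlier-flagged spots let 30 genes be tested, with 7 and 1 at least 5-fold higher and lower (12.8% and 15.4%), 15 higher (29.8%) and 9 lower (49.5%). The methods' paired test gave 1 lower before adjustment (33.8%), and after it 0 at least 5-fold higher (9.79%; 2 before it, 11.9%), 1 higher (17.6%) and 1 lower (21.9%), with 4 higher and 9 lower of 40 other recombination genes. At 2-fold, 2 genes were lower (36.6%). Signs turned for Tex12 (-0.34 quantile, -0.24 median shift, -0.17 authors' values), H2afx (-0.057 quantile) and Prdm9 (-0.24 authors' values), none of which had a call.

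With no replicate block, 6 of the 16 genes were higher (26.7%) and 2 lower (42.0%), with a median of 0.61, and with the spots kept 14 of 30 were higher (25.5%) and 5 lower (43.3%). Without 1 replicate, or without the block and 1 array, outlier-flagged spots left 4 to 16 genes to test, and these gave 0 to 3 at least 5-fold higher (8.75% to 17.2%), 0 to 1 at least 5-fold lower (11.1% to 17.1%), 0 to 7 higher (17.9% to 28.5%), 1 to 3 lower (28.1% to 43.2%) and medians of -0.83 to 0.61 (over all mRNA probes -0.57 to -0.078), with 2 to 10 higher and 5 to 19 lower of the other recombination genes.

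With the spots kept together with a further choice, at least 5-fold lower were 2 genes under quantile normalization (20.1%) and in the authors' values (20.9%), and 0 with normexp (7.87%). Lower at any fold were 5 by the methods' paired test, before (44.6%) and after adjustment (40.9%), and higher were 8 in the authors' values (26.2%). The median was 0.17 under quantile normalization and 0.39 under the median shift. Leaving out 1 replicate or array gave 0 to 2 genes at least 5-fold lower (15.0% to 15.9%), 5 to 7 lower (38.5% to 44.7%), 11 to 14 higher (22.8% to 27.7%) and medians of 0.47 to 0.85 (over all mRNA probes -0.52 to -0.49). Sycp3 went to -0.20 (quantile), -0.16 (median shift), -0.37 (normexp) and -0.17 (authors' values), and between -0.79 and 1.79 when 1 replicate or array was left out (-0.72 and -0.79 without replicate 2 or 3, and -0.28, -0.79 and -0.42 without the block and neonatal replicate 3, adult replicate 2 or adult replicate 3). Syce2 went to -0.0090 under quantile normalization.

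Signal over background limits the low end, where Dmc1 was well above background on 1 of 3 adult arrays. Genes fitted on 2 pairs give no value when 1 of those pairs is left out. Kept spots carry values that the scanner software called uneven within the spot or unlike other spots of the probe. Pools of mice, 3 per age, show no spread between animals.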
